A study of Mus musculus with 6 samples.

Results

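Fibroblast growth factors (FGFs) are secreted proteins that bind FGF receptors on neighbouring cells together with heparan sulfate on the cell surface, and the receptors then signal through the Ras and MAP kinase cascade. In the tooth, FGFs carry signals in both directions between dental epithelium and dental mesenchyme. Fgf3 and Fgf10 are known as ligands of the dental mesenchyme that act on the epithelium, whereas Fgf8, Fgf9 and Fgf20 are known as epithelial ligands.

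The genes described are 10 FGF ligands, Fgf1, Fgf2, Fgf3, Fgf7, Fgf8, Fgf9, Fgf10, Fgf16, Fgf18 and Fgf20, chosen by name among the 27506 genes of the count table, which lists all 10. RNA-seq was made from dental pulp of mandibular first molars of C57BL/6 mice at 3.5 days after birth, when root formation begins. The 3 control libraries came from Ror2fl/fl mice and the 3 mutant libraries from Osr2-Cre;Ror2fl/fl mice, so both groups carry the floxed Ror2 alleles, and the genotype labels name Cre for the mutants alone. The title of control library 1 holds the letter code WW, those of control libraries 2 and 3 OW and those of the mutants OR, and the labels do not explain these codes. According to the study, this Cre acts in dental mesenchyme and alveolar bone and not in dental epithelium, so epithelial Ror2 remains. The labels do not say whether each library came from its own animal, and p-values therefore measure the spread between these libraries, which may be partly technical.

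The libraries held between 56134770 and 62628940 estimated counts. Values are given in CPM, the count scaled to a common library size with edgeR's TMM method, and a mean is followed by its SD over the 3 libraries. The quasi-likelihood test of edgeR was run on the 19330 genes that passed its filter on low counts, with Benjamini-Hochberg adjustment over all of them. Ror2, the targeted receptor gene, had 38.2, 36.2 and 36.7 CPM in the controls against 27.9, 28.1 and 26.3 CPM in the mutants. It fell by 0.43 on the log2 scale (SE, the standard error, 0.08, edgeR adjusted p = 0.013), with adjusted p-values of 0.066 without control library 2 and 0.075 without control library 3, and its count sums all exons, also those outside any deleted part. Of all genes tested, 20.2% had an adjusted p-value under 0.05, 9.84% lower and 10.4% higher in mutants, and for 44.7% the 3 libraries of each group did not overlap. The number with an adjusted p-value under 0.05, 3906, was 910 without control library 2 and 872 without control library 3.

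The tissue was labelled dental pulp, but transcripts of the enamel-forming ameloblasts were abundant in every library. The 7 ameloblast markers summed to between 168770 and 190330 CPM in control and between 181970 and 252410 CPM in mutant libraries. Amelx, the main enamel matrix gene, alone made up 88628 to 99214 CPM in control and 122720 to 160440 CPM in mutant libraries. The sum follows Amelx, since the other 6 ameloblast markers were fitted below 0, with a median log2 fold change of -0.47 over the 7. Of these, Enam, Mmp20 and Odam were lower in each mutant than in each control library, and Odam passed the threshold (log2 fold change -0.55, edgeR adjusted p = 0.012). The 10 markers of dental epithelium summed to 3870 to 5153 CPM in control and 4843 to 5662 CPM in mutant libraries, ranges that overlapped. Of these markers, 7 were fitted above 0 and 3 below, and the groups did not overlap for 2 that were higher and for 1 that was lower, Trp63. The 7 markers of dental mesenchyme summed to 1006 to 1301 CPM in control and 949 to 1182 CPM in mutant libraries, most of it from Vim. Of the 7, 5 were fitted below 0 and 2 above. Only Msx2 was called, and it was higher in mutants (log2 fold change 0.38, edgeR adjusted p = 0.042). The 5 odontoblast markers summed to 3528 to 9257 CPM in control and 3196 to 7528 CPM in mutant libraries, and none was called. The 8 skeletal muscle markers were low, but their sums did not overlap, with 10.5 to 36.7 CPM in control and 2.63 to 3.55 CPM in mutant libraries. All 6 of them that were tested were called lower, with a median log2 fold change of -3.25. The 6 blood and immune markers summed to 497 to 913 CPM in control and 192 to 600 CPM in mutant libraries. Of these, 2 were called lower, Hba-a1 and Alas2, and 4 were not called. Each library thus measured epithelial and mesenchymal cells together, and the part of these markers in the ligand values was not tested. Fewer cells of a type and less RNA per cell cannot be told apart in such samples.

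The clearest difference between the groups was in Fgf2, which fell by 40.4% in mutant libraries in the main fit. This call was lost in 10 of the 17 alternatives tried for it, among them the sum with its overlapping neighbour Nudt6. That sum also adds the reads of Nudt6 itself. The dental mesenchyme ligands Fgf3 and Fgf10 and the low Fgf18 were below every control library in every mutant library, and Fgf1 was above, but these 4 did not pass the threshold after adjustment. The remaining ligands overlapped between the groups. Of the 10 ligands, 9 passed the filter on low counts, and 1 of these, Fgf2, had an adjusted p-value under 0.05, where 20.2% of all genes did. Without adjustment, 4 of the 9 had an edgeR p-value under 0.05, 3 lower and 1 higher. Among all 19330 genes tested, 7410 had one, 3621 lower and 3789 higher. The groups did not overlap for 4 ligands that were lower and 1 that was higher, beside 22.1% and 22.6% of all genes, so the 5 of 9 lie near the 44.7% of the background. The median log2 fold change of the 9 was 0.08, against 0.01 for all genes tested. This median is the value of Fgf8, which rested on 6 to 35 counts per library.

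**Figure D1:**
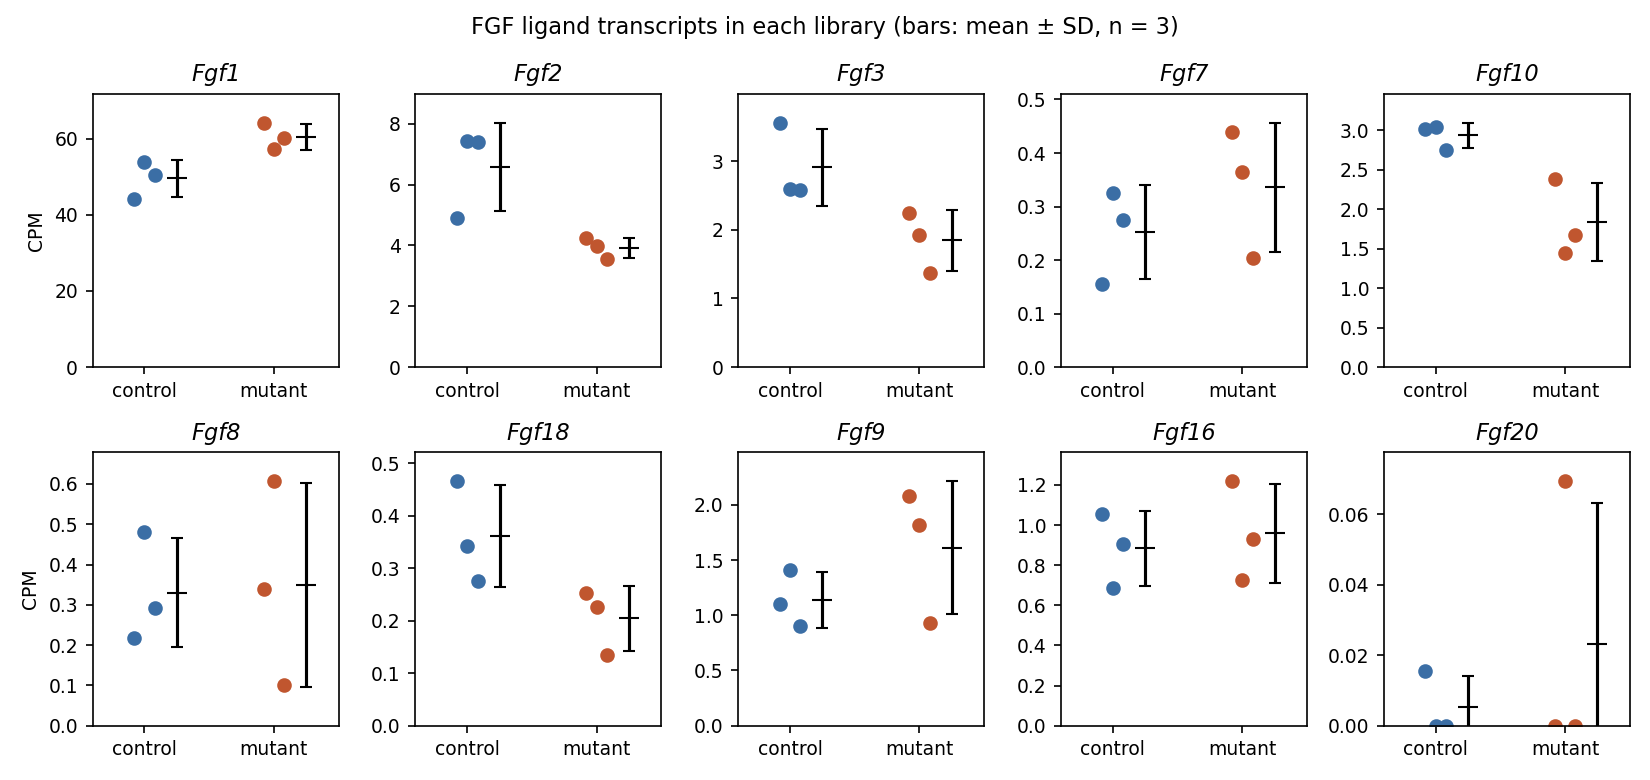
Expression of the 10 FGF ligands in CPM (vertical axes from 0, a separate scale for each gene), with 1 point per library for 3 control and 3 mutant libraries and the mean ± SD beside them. Fgf2, Fgf3, Fgf10 and Fgf18 lie lower and Fgf1 higher in all mutant libraries, and the other 5 genes overlap.

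To compare levels between ligands, values were divided by the length of the union of exons of each gene. Fgf1 had the highest level per length, between 8.10 and 11.7 CPM per kb over the 6 libraries. Fgf3 followed with 0.59 to 1.53 CPM per kb and Fgf2 with 0.525 to 1.10 CPM per kb. The range of Fgf1 did not overlap that of Fgf3, whereas Fgf3, Fgf2, Fgf16, Fgf10, Fgf9, Fgf8, Fgf18 and Fgf7, in this order of mean level, each overlapped the next. Genes farther apart in this order could be told apart, since the lowest values of Fgf3 and Fgf2 lay above the highest of Fgf9, at 0.447 CPM per kb, and of Fgf8, at 0.449. Fgf7 stood at 0.0478 to 0.135 CPM per kb, and Fgf20 was lowest, at 0.0413 CPM per kb or less. Fgf1 held 64.8%, 69.5% and 69.4% of the summed level per length of the 10 ligands in control libraries and 75.1%, 75.8% and 81.5% in mutant libraries. Its share was thus higher in every mutant library, where Fgf1 was higher and Fgf2, Fgf3 and Fgf10 were lower. The mean over the 6 libraries was 1.02 CPM per kb for Fgf3 and 0.518 for Fgf10, and 0.296 for Fgf9 and 0.251 for Fgf8.

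**Figure D2:**
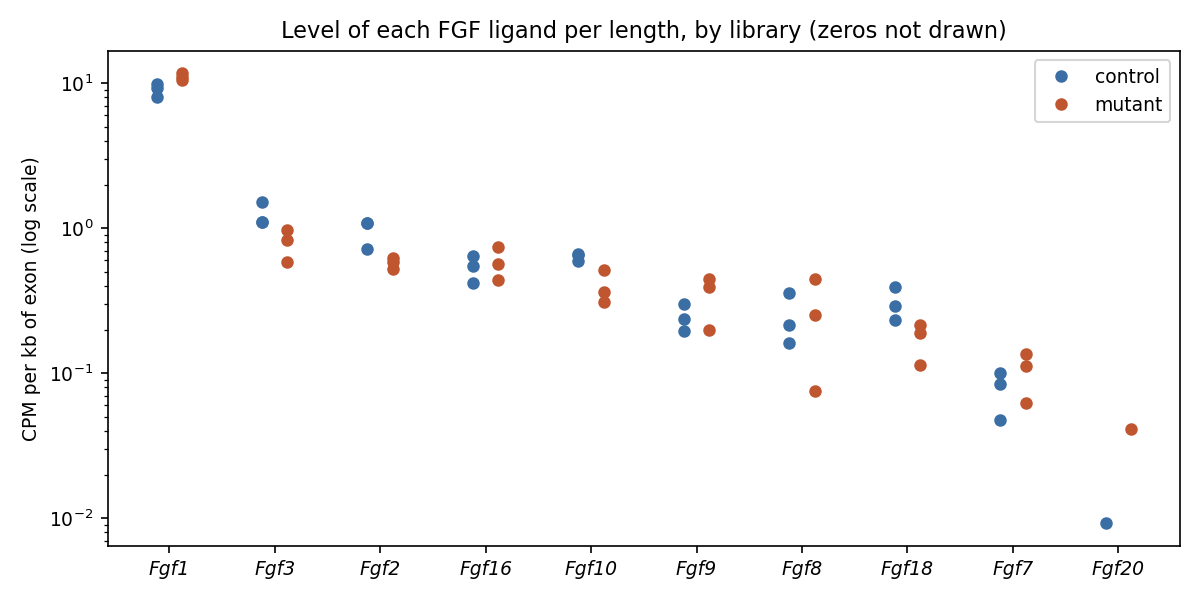
Level of each ligand in CPM per kb of exon (logarithmic vertical axis) in 3 control and 3 mutant libraries, 1 point per library, ordered by the mean over the 6. Fgf1 lies between 8.10 and 11.7, clear of all others, and Fgf20 has only 2 points because 4 libraries had no count.

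Fgf1 and Fgf2 are the founding members of the family and leave the cell without a classical signal peptide. Fgf1 (ENSMUSG00000036585.16) is on chromosome 18 of mm10 (38838673 to 38929472, minus strand). It had 44.2, 53.9 and 50.5 CPM in the controls against 64.1, 57.2 and 60.1 CPM in the mutants, from 2848 to 3791 counts. Every mutant library was above every control library, with the closest pair at 53.9 and 57.2 CPM. The log2 fold change was 0.29 (SE 0.10, 95% interval 0.05 to 0.52), or 22.2% higher, and missed the threshold (edgeR adjusted p = 0.078). It passed the threshold when an offset for the GC content of transcripts was added to the fit. The log2 fold change was then 0.36 (edgeR adjusted p = 0.042). The threshold was missed in 14 of 16 alternatives, among them all 6 fits without 1 library (edgeR adjusted p = 0.0504 to 0.221).

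Fgf2 (ENSMUSG00000037225.13) lies on the plus strand of chromosome 3, from 37348346 to 37410108. It had 4.89, 7.44 and 7.40 CPM in the controls against 4.23, 3.97 and 3.56 CPM in the mutants. All mutant libraries were below all control libraries, and control library 1 lay much closer to the mutants than the other controls did. The mean was 6.58 ± 1.46 CPM in controls and 3.92 ± 0.338 CPM in mutants, and Fgf2 fell by 0.75 on the log2 scale (SE 0.19, edgeR adjusted p = 0.032). The exact permutation test of 3 libraries against 3 gave p = 0.1, the smallest two-sided p these groups allow. The call rests on few libraries, since the adjusted p was 0.13 without control library 2 and again without control library 3, 0.059, 0.052 and 0.056 without mutant library 1, 2 and 3, and 0.016 without control library 1 (edgeR). With the GC offset the log2 fold change was -0.50 (edgeR adjusted p = 0.10).

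The 3' end of Fgf2 overlaps Nudt6, a gene on the opposite strand of chromosome 3 from 37404910 to 37420211. Exons of Fgf2 also overlap Gm43439, a transcript on the same strand that the count table does not list. Both share sequence with Fgf2. The most shared with 1 other gene was 513 of the 7002 stretches of 75 bases in Fgf2 transcripts, 7.33%, counting both strands. The sources used here do not say whether the counting used strand, so reads shared by Fgf2 and Nudt6 could have been given to either gene. Nudt6, which encodes a nudix hydrolase, had 1.25, 1.52 and 1.15 CPM in the controls against 2.42, 2.17 and 1.60 CPM in the mutants. It thus stood higher in every mutant library while Fgf2 stood lower, but its own log2 fold change of 0.66 (SE 0.24) missed the threshold (edgeR adjusted p = 0.079, and 0.036 without mutant library 3). Nudt6 held 20.4%, 17.0% and 13.5% of the counts of both genes in control and 36.4%, 35.4% and 30.9% in mutant libraries. The sum of Fgf2 and Nudt6 was 6.15, 8.96 and 8.55 CPM in the controls against 6.66, 6.14 and 5.16 CPM in the mutants. In the sum the groups overlapped, and the log2 fold change was -0.40 (edgeR adjusted p = 0.14). The sum also holds the reads of Nudt6 itself, so a rise of Nudt6 makes its fall smaller wherever shared reads were counted. Mean Nudt6 was 1.31 CPM in control and 2.06 CPM in mutant libraries, beside 6.58 and 3.92 CPM for Fgf2. How shared reads were divided was not tested.

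**Figure D3:**
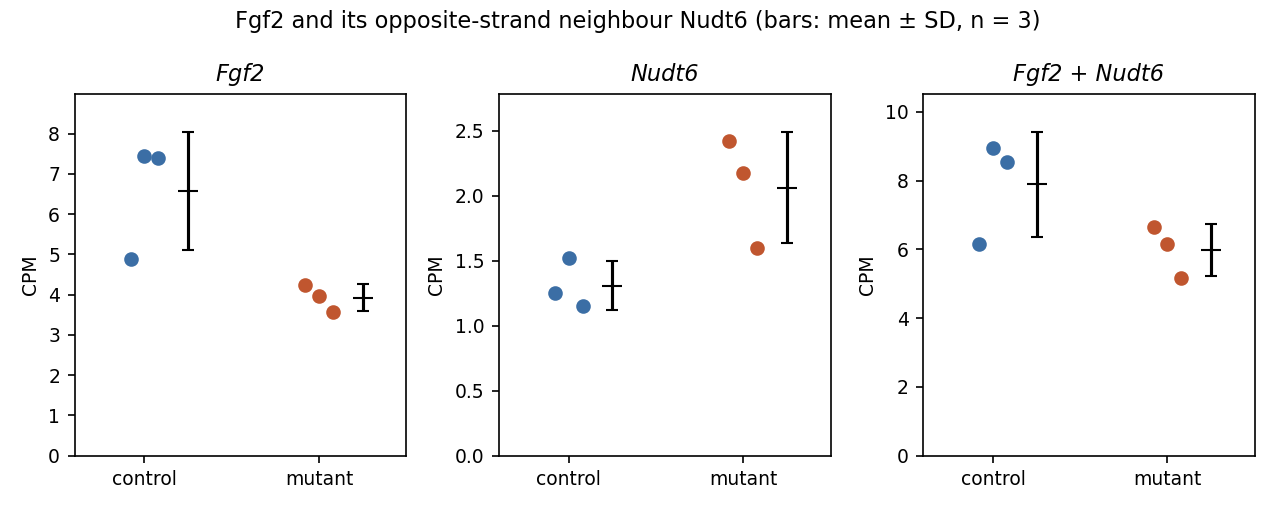
Fgf2, its opposite-strand neighbour Nudt6 and their sum in CPM (vertical axes from 0), 1 point per library with mean ± SD for 3 control and 3 mutant libraries. Fgf2 is lower and Nudt6 higher in all mutant libraries, and in the sum control library 1, at 6.15 CPM, lies among the mutants.

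Fgf3, Fgf7 and Fgf10 belong to one subfamily whose members signal mainly to epithelium through Fgfr2 and Fgfr1 isoforms. Fgf3 (ENSMUSG00000031074.14; chromosome 7, 144838083 to 144844436, plus strand) had 3.56, 2.59 and 2.58 CPM in the controls against 2.25, 1.92 and 1.37 CPM in the mutants. Control library 1 was the highest and mutant library 3 the lowest, with a gap between 2.25 and 2.58 CPM separating the groups. The log2 fold change was -0.65 (SE 0.24, 95% interval -1.21 to -0.10) and missed the threshold (edgeR adjusted p = 0.087). With the GC offset it was -0.85, past the threshold (edgeR adjusted p = 0.045). Of 16 alternatives, 14 missed the threshold, among them all 6 fits without 1 library (edgeR adjusted p = 0.0781 to 0.218).

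Fgf10 (ENSMUSG00000021732.14; chromosome 13, 118669791 to 118792115, plus strand), which maintains the epithelial cervical loop of the mouse incisor, had 3.01, 3.04 and 2.75 CPM in the controls against 2.38, 1.44 and 1.68 CPM in the mutants. The control libraries lay close together and mutant library 1 was the nearest mutant to them. The log2 fold change was -0.68 (SE 0.22, 95% interval -1.19 to -0.16), with an adjusted p of 0.064 from edgeR's quasi-likelihood test. DESeq2's Wald test gave an adjusted p of 0.0315, and edgeR gave 0.035 without mutant library 1. These were the only passes, and 15 of 17 alternatives missed the threshold. With the GC offset the log2 fold change was -0.42 (edgeR adjusted p = 0.22), so the offset moved Fgf3 away from 0 and Fgf10 towards it.

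Fgf7 (ENSMUSG00000027208.14; chromosome 2, 126034658 to 126091185, plus strand), the keratinocyte growth factor, rested on 10 to 26 counts per library. It had 0.155, 0.326 and 0.275 CPM in the controls against 0.44, 0.364 and 0.203 CPM in the mutants, and the groups overlapped. The 95% interval of its log2 fold change, -0.58 to 1.41, leaves room for a change of either direction, so no difference was detectable at this depth (edgeR adjusted p = 0.51).

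Fgf8 and Fgf18 belong to another subfamily. Fgf18 (ENSMUSG00000057967.12; chromosome 11, 33147400 on its minus strand down to 33117430), a ligand known for its role in cartilage and bone growth, had 0.466, 0.343 and 0.275 CPM in the controls against 0.254, 0.225 and 0.136 CPM in the mutants. Every mutant library was below every control library, and 8 to 30 counts lay behind each value. The log2 fold change of -0.82 had a 95% interval from -1.72 to 0.09 and missed the threshold (edgeR adjusted p = 0.17). Fgf8 (ENSMUSG00000025219.13; chromosome 19, 45736798 to 45742915, minus strand), which marks early oral epithelium, had 0.217, 0.48 and 0.292 CPM in the controls against 0.338, 0.607 and 0.102 CPM in the mutants. Its highest and its lowest value were both in mutants, and the 95% interval of the log2 fold change ran from -1.29 to 1.45 (edgeR adjusted p = 0.93).

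Fgf9, Fgf16 and Fgf20 form one subfamily by sequence, of which Fgf9 and Fgf20 are known from dental epithelium. Fgf9 (ENSMUSG00000021974.15; chromosome 14, 58070547 to 58112720, plus strand) had 1.10, 1.41 and 0.907 CPM in the controls against 2.08, 1.82 and 0.932 CPM in the mutants. Mutant libraries 1 and 2 were above all controls and mutant library 3 was among them, and the log2 fold change of 0.50 (95% interval -0.26 to 1.26) missed the threshold (edgeR adjusted p = 0.30). Fgf16 (ENSMUSG00000031230.3; chromosome X, 105764279 to 105774939, plus strand) had 1.06, 0.686 and 0.907 CPM in the controls against 1.22, 0.728 and 0.932 CPM in the mutants. The 3 values of each group covered nearly the same range, with a log2 fold change of 0.12 (95% interval -0.56 to 0.80, edgeR adjusted p = 0.80). Fgf20 (ENSMUSG00000031603.14; chromosome 8, 40279166 to 40308331, minus strand) had 1 count in control library 1, 4 counts in mutant library 2 and none in the other libraries. A library without a count allows a level of up to 0.0508 CPM in mutant library 3, for example, where 3 counts are taken as the limit, which covers counting error only. Fgf20 also shares 130 of its 1602 stretches of 75 bases with Micu3 on the opposite strand, was not tested, and is given no fold change.

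**Figure D4:**
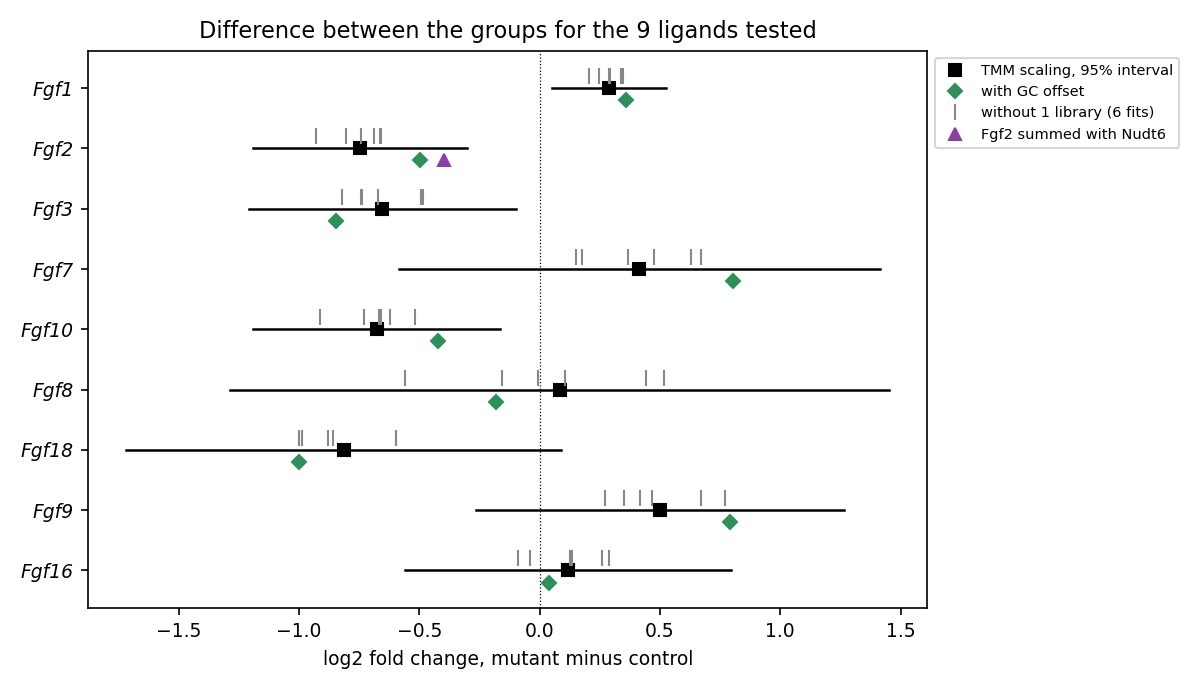
Log2 fold change, mutant minus control, for the 9 ligands tested (horizontal axis), with squares and lines for the edgeR fit and its 95% interval, diamonds for the fit with a GC offset, ticks for the 6 fits without 1 library and a triangle for Fgf2 summed with Nudt6. The intervals of Fgf1, Fgf2, Fgf3 and Fgf10 do not reach 0, while the ticks of Fgf8 and Fgf16 lie on both sides of it.

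The likeness of the ligands across libraries was described by the root mean square difference of log2 CPM after centring each gene on its mean over the 6 libraries, among 80 genes of the FGF pathway lists. The 2 genes most like Fgf3 were Fgf18, at 0.10, and Fgf10, at 0.25. For Fgf1 they were Spry2, at 0.11, and Agrn, at 0.12, and for Fgf2 they were Hs6st2, at 0.12, and Flrt3, at 0.14. All 6 libraries entered, so a difference shared between the groups adds to the likeness. The genes named were picked as the closest of 80. Fgf18 rested on 8 to 30 counts per library, and counting error was not set against its difference of 0.10 from Fgf3.

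Because Fgf10 and Fgf18 were the ligands most like Fgf3, the 250 bases upstream of the RefSeq start sites of all 3 are shown here (GRCm38.p6, written 5′ to 3′ on the strand of the gene). The windows are chr7:144838362-144838611 on the plus strand for Fgf3, which lies inside the annotated gene, in an intron of the transcript that starts farthest upstream and at its last bases in the first exon of another, chr13:118714449-118714698 on the plus strand for Fgf10, in an intron of a longer annotated transcript, and chr11:33147401-33147650 on the minus strand for Fgf18. Capitals mark matches to 3 kinds of motif on either strand, TGANTCA for AP-1, CTTTGA or CTTTGT for TCF/LEF factors and TGTGGT for RUNX factors.
Fgf3: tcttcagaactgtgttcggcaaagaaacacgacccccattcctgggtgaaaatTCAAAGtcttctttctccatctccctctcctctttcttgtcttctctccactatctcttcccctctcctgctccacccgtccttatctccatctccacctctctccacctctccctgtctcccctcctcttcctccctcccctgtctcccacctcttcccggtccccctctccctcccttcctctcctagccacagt
Fgf10: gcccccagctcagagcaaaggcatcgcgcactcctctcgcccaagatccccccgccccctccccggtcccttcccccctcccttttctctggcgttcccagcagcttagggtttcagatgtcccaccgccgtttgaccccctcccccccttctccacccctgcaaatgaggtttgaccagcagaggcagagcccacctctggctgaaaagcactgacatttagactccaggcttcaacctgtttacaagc
Fgf18: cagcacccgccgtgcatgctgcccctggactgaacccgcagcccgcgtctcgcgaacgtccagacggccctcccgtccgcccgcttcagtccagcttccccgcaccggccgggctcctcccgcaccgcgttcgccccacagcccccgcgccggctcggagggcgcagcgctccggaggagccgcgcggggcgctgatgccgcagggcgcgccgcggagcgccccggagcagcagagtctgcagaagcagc

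The search found 1 match, to the TCF/LEF letters, in the window of Fgf3, and none in those of Fgf10 and Fgf18. Over all 32851 upstream windows of this length, 27.6% held the TCF/LEF letters, 14.0% the RUNX letters and 6.75% the AP-1 letters. The GC content of the windows was 55.2% for Fgf3, 61.2% for Fgf10 and 77.2% for Fgf18. A match of letters describes the sequence only.

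Of the receptors of these ligands, 2 differed between the groups in opposite directions. Fgfr3 had 49.2, 65.0 and 61.5 CPM in the controls against 30.6, 30.5 and 21.0 CPM in the mutants. It fell by 1.10 on the log2 scale (SE 0.17, edgeR adjusted p = 0.0057), and stayed past the threshold in all 16 alternatives tried for it. Among these, the prior count of 2 reused the p-value of the main fit and could not lose the call. Fgfr2, the main receptor of Fgf3, Fgf7 and Fgf10 on epithelium, had 145, 133 and 144 CPM in the controls against 187, 193 and 169 CPM in the mutants. Its rise of 0.38 on the log2 scale (SE 0.10, edgeR adjusted p = 0.035) was lost without control library 1, 2 or 3 (edgeR adjusted p = 0.067, 0.17 and 0.14) and without mutant library 1 (0.080). In all, 9 of 16 alternatives lost it, among them the GC offset (edgeR adjusted p = 0.056), scaling by library size alone (0.074) and no filter (0.057). Fgfr1, the receptor of much of the mesenchyme, had 586, 788 and 734 CPM in the controls against 930, 1048 and 699 CPM in the mutants, and the groups overlapped (edgeR adjusted p = 0.20). Of the 7 receptor and co-receptor genes listed, 6 were tested, 1 was higher and 1 lower, beside 10.4% and 9.84% of all genes, with a median log2 fold change of -0.11. Isoforms of Fgfr1 and Fgfr2 that bind different ligands were counted together.

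Feedback inhibitors and transcription factors induced by FGF signaling did not move in one direction. Of 17 listed genes 16 were tested, of which 1 was higher and 3 lower, with a median log2 fold change of -0.19. The 4 of 16 lie near the 20.2% of all genes called. Etv4, an ETS factor induced by FGFs, had 5.59, 3.48 and 3.51 CPM in the controls against 10.7, 11.3 and 5.98 CPM in the mutants. It rose by 1.15 on the log2 scale (SE 0.28, edgeR adjusted p = 0.027), with adjusted p-values of 0.11 without control library 2 or control library 3, and of 0.075 and 0.058 without mutant library 1 and 2. Spred1, an inhibitor of Ras and Raf signaling, had 94.5, 109 and 111 CPM in the controls against 78.4, 57.3 and 70.5 CPM in the mutants, and fell by 0.61 on the log2 scale (SE 0.13, edgeR adjusted p = 0.019). Its adjusted p was 0.084 without control library 2 and 0.087 without control library 3, and with the GC offset the log2 fold change was -0.34 (edgeR adjusted p = 0.083). Flrt3, a membrane protein that binds FGF receptors, had 27.0, 40.8 and 39.0 CPM in the controls against 25.2, 20.03 and 15.6 CPM in the mutants. It fell by 0.81 on the log2 scale (SE 0.21, edgeR adjusted p = 0.031), which was lost in 4 of the 6 fits without 1 library, with adjusted p-values of 0.11 without control library 2 or 3, and 0.058 and 0.052 without mutant library 2 and 3. With the GC offset it was -0.56 (edgeR adjusted p = 0.095).

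The other lower gene of this list, named after its values were seen, was Dusp6, a phosphatase that inactivates ERK, with 22.1, 23.4 and 23.6 CPM in the controls against 18.9, 15.1 and 17.5 CPM in the mutants. It fell by 0.43 on the log2 scale (SE 0.11, edgeR adjusted p = 0.033), with adjusted p-values of 0.059, 0.13 and 0.14 without control library 1, 2 and 3. The Sprouty inhibitors, also named after their values were seen, did not pass the threshold in the main fit. Spry1 had a log2 fold change of 0.49 (edgeR adjusted p = 0.074) and was higher in every mutant than in every control library. It passed in 1 of 16 alternatives, DESeq2's Wald test (adjusted p = 0.0425). Spry2 had a log2 fold change of 0.22 (edgeR adjusted p = 0.22, and 0.046 without mutant library 2) and Spry4 of -0.20 (0.49). Etv5, the close relative of Etv4, had a log2 fold change of 0.51 with overlapping groups (edgeR adjusted p = 0.15).

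Of 22 genes that carry the signal from the receptor to ERK and PI3 kinase, 1 was higher and 1 lower, and the median log2 fold change was -0.13. These 9.09% stand beside 20.2% of all genes. Both were MAP kinase kinases. Map2k1 went down from 47.6 ± 1.84 to 31.8 ± 5.09 CPM (log2 fold change -0.58, SE 0.13, edgeR adjusted p = 0.018) and Map2k2 up from 79.7 ± 4.83 to 108 ± 0.651 CPM (0.44, SE 0.09, adjusted p = 0.015). With the GC offset, Map2k2 had a log2 fold change of 0.21 (edgeR adjusted p = 0.14). Neither passed without control library 2 or 3, where the adjusted p was 0.071 and 0.073 for Map2k1 and 0.10 in both cases for Map2k2, and Map2k1 had 0.054 without control library 1. Summed over the lists of other FGFs, receptors, feedback genes, transduction and heparan sulfate, 14 of 72 genes tested passed the threshold, or 19.4% beside 20.2% of all genes, and 1, Fgfr3, did so without control library 2 and again without control library 3.

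**Figure D5:**
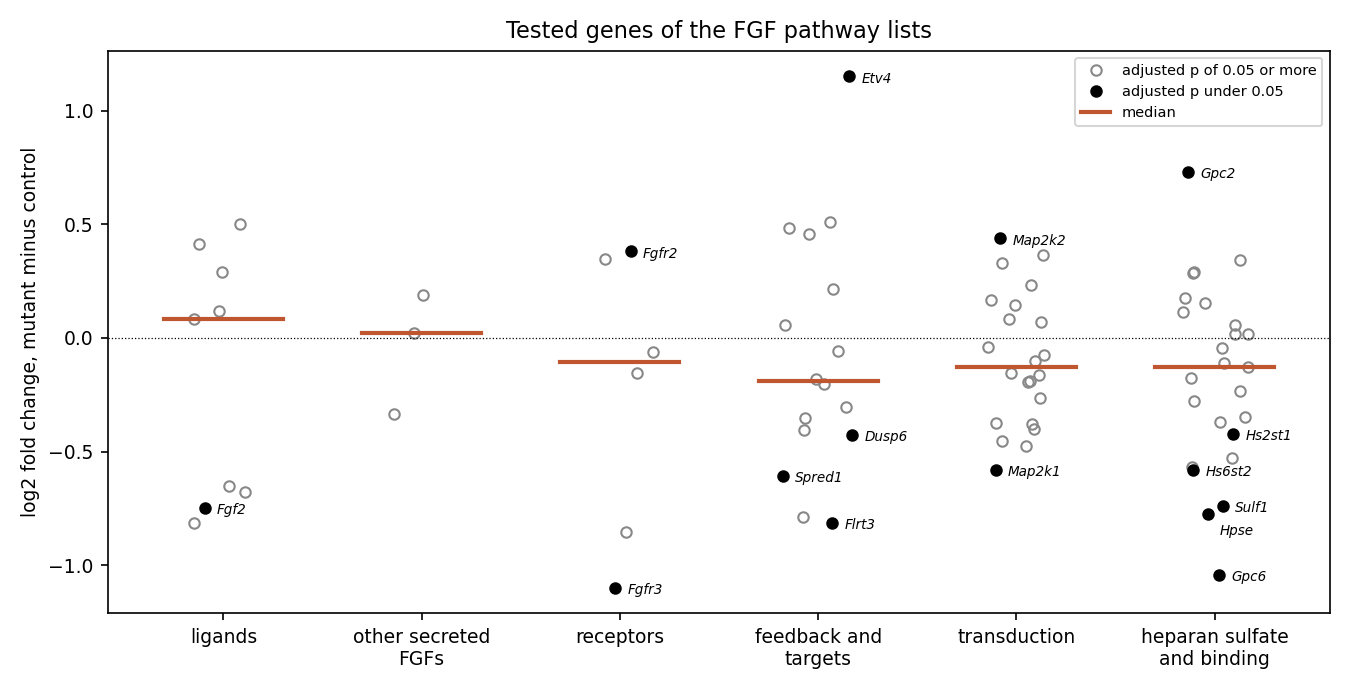
Log2 fold change, mutant minus control (vertical axis), of every tested gene in the ligand list and the 5 other FGF pathway lists (horizontal axis), with filled points for adjusted p-values under 0.05 and lines for the median of each list. Medians lie between -0.19 and 0.08, and filled points occur on both sides of 0 in 4 of the lists.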

How the data were processed

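RNA-seq of 3 control and 3 mutant libraries was analysed. The authors deposited estimated counts per gene without normalization, of which 47.8% were whole numbers, zeros included. Per the methods, single-end reads of 75 cycles were aligned to mm10 with TopHat 2 and counted over exons, whereas the submitters' processing notes name STAR 2.6.1d and Partek. Strand use and annotation are not given in the sources used here. A second deposited table of the same libraries, each estimated count plus 1 multiplied by 1 factor per library, was not used, and neither were 6 count columns that match no labelled sample.

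The design had been written for counts, so the estimated counts were rounded and tested with edgeR 4.0.16 in R 4.3.3 (glmQLFit and glmQLFTest, TMM, filterByExpr, Benjamini-Hochberg). CPM used unrounded counts. Standard errors were computed from the fold change and its F statistic. Alternatives used DESeq2 1.42.0, other scalings and filters, a replicate block, per-library trends on GC content and exon length, a prior count of 2, sums with overlapping genes, and leaving out each library. The fit was tested on simulated data. The biological coefficient of variation was 18.7%. No pair of libraries within a group looked like a repeat deposit (lowest chi-square for a gene on average 44.7). Two-sided permutation tests ran on log2 CPM (prior count 2). Genes, lengths and overlaps are from GENCODE M21 on mm10, and upstream sequences from RefSeq on GRCm38.p6, which held 6 of the 10 ligands. The rule named all ligands, Ror2, in each pathway list the 3 genes of smallest p, and the 2 genes most like each of the 3 ligands with the most counts. Of these, 1 gene is not reported here. Members, lists and tests were chosen with earlier results of these data known.

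Mutant titles carry a replicate number and control titles do not, so controls were numbered in accession order. Deviations of same-numbered libraries from their group means correlated at -0.10, -0.08 and -0.00375 over genes, so the numbers were not treated as pairs. The study's methods speak of pairs of samples but do not say which libraries belong together. The titles of both groups also hold the indices S5, S6 and S7, in the same order as these numbers, and the labels do not explain them. The check covered this numbering alone and could not exclude another pairing. Apart from these indices, label identifiers differ between the groups, so genotype cannot be told apart from any batch tied to it.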

Additional observations from a re-analysis of the deposited data

How the results depend on the processing

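Over 143 alternative fits of the 9 ligands, 117 kept the direction and the side of the threshold, 10 lost a call, 6 gained one and 10 reversed. These include the fits with a prior count of 2, which changed the fold change alone and reused the p-value of the main fit. Their side of the threshold was therefore fixed in advance. The number of ligands with an adjusted p-value under 0.05, 1 in the report, was 2 with DESeq2's Wald test, with the GC offset and with the GC and length offset, and 0 with the replicate block and with the replicate block and GC offset, and ran from 0 to 1 when 1 library was left out. The number of other pathway genes, 14 in the report, was 23 with DESeq2, 7 with the replicate block (without Fgfr2, Flrt3, Dusp6, Map2k2, Gpc2, Hs2st1 and Hs6st2), 8 with the GC offset, 9 with the GC and length offset and 5 with the block and GC offset, and ran from 1 to 16 without 1 library. The log2 fold change of Fgf2 was -0.73 with the block, -0.50 with the GC offset, -0.43 with the GC and length offset, -0.49 with the block and GC offset and -0.40 summed with Nudt6, none past the threshold, and ran from -0.93 to -0.66 without 1 library. The GC offset and the GC and length offset brought Fgf1 to 0.36 and 0.39 and Fgf3 to -0.85 and -0.91, past the threshold. With the block and GC offset both missed it (edgeR adjusted p = 0.124 for Fgf1 and 0.0625 for Fgf3). Fgf10 passed with DESeq2, at -0.68, and ran from -0.91 to -0.52 without 1 library. Fgf8, 0.08 in the report, was -0.066 with the block, -0.18 with the GC offset, -0.31 with the GC and length offset and -0.31 with the block and GC offset, and ran from -0.56 to 0.52 without 1 library. Fgf16, 0.12 in the report, was -0.037 with the GC and length offset and ran from -0.091 to 0.29 without 1 library. Fgf22 was -0.0060 with the GC offset and -0.071 with the GC and length offset, and Fgf5 ran from -0.19 to 0.22 without 1 library. Ror2 was -0.43 with the block (adjusted p = 0.058 from edgeR) and ran from -0.46 to -0.41 without 1 library. Per length of the longest transcript, Fgf1 stood at 13.8 CPM per kb. The cause of these changes was not tested.

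The number of genes called among all tested was 2013 with the replicate block, 1323 with the block and GC offset, 910, 872 and 2404 without control library 2, control library 3 and mutant library 1, and 5410 with DESeq2, against 3906. Depth limits Fgf7, Fgf8, Fgf18 and Fgf20, with at most 35 counts in a library. Summing Fgf10 with the antisense Gm16263, which had at most 0.0347 CPM, left its log2 fold change at -0.66. With a filter at a mean of 50 counts, Fgf7, Fgf8 and Fgf18 gave no value.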

Other observations

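Heparan sulfate proteoglycans, the enzymes that shape them and other FGF-binding proteins were called about as often as all genes. Of 26 listed genes 25 were tested, of which 1 was higher and 5 lower, beside 10.4% and 9.84% of all genes, with a median log2 fold change of -0.13. Sulf1, a sulfatase that trims heparan sulfate at the cell surface, had 201, 236 and 225 CPM in the controls against 131, 109 and 158 CPM in the mutants, and fell by 0.74 on the log2 scale (SE 0.15, edgeR adjusted p = 0.015). Gpc6, a glypican, had 25.9, 37.0 and 37.0 CPM in the controls against 21.3, 12.1 and 15.0 CPM in the mutants, and fell by 1.04 (SE 0.22, edgeR adjusted p = 0.018). Hpse, which encodes heparanase, had 35.9, 57.6 and 49.7 CPM in the controls against 28.6, 24.5 and 30.5 CPM in the mutants, and fell by 0.78 (SE 0.17, edgeR adjusted p = 0.020). Without control library 2 and without control library 3, none of the 3 passed, with adjusted p-values of 0.070 and 0.067 for Sulf1, 0.073 and 0.074 for Gpc6 and 0.080 and 0.081 for Hpse (edgeR), and Hpse had 0.054 without mutant library 1. The other calls, named after their values were seen, were Hs2st1 and Hs6st2, sulfotransferases that were lower by -0.42 and -0.58 on the log2 scale (edgeR adjusted p = 0.035 and 0.036), and the glypican Gpc2, which was higher by 0.73 (adjusted p = 0.025). These 3 were also lost without control library 2 (adjusted p = 0.14, 0.14 and 0.11) and without control library 3 (0.13, 0.16 and 0.099). With the GC offset, Hs2st1 was at -0.29 (edgeR adjusted p = 0.084) and Hs6st2 at -0.43 (0.095). Hs2st1 was further lost without control library 1 (0.067), and Hs6st2 without mutant library 1 and 3 (0.069 and 0.058).

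Of the secreted FGFs that are no members, the table listed 6 of 8, and 3 passed the filter. Fgf5, Fgf21 and Fgf22 stood between 0.173 and 0.497 CPM in every library, and their groups overlapped. None passed the threshold, and none had an unadjusted p-value under 0.05 (edgeR, adjusted p = 0.56 for Fgf21, 0.70 for Fgf22 and 0.97 for Fgf5). Fgf6, Fgf17 and Fgf23 were too low to test. Of the co-receptors of hormone-like FGFs, Kl was at 0.101 to 0.295 CPM and Klb at 0.0621 CPM or less.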
